A study of Mus musculus with 8 samples.

Results

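Wild-type naive CD4+ T cells were described here through 2 libraries, 1 for the histone mark H3K27me3 and 1 for RNA. The members are the promoter windows of the wild-type ChIP-seq library that share a gene symbol with the wild-type RNA-seq library. Of 18603 windows, 18484 were joined in this way, and 17957 of those held ChIP signal. The RNA library lists 22410 genes. The whole series holds 8 libraries, 1 per assay and genotype, and the mutant libraries were not analysed here.

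Per the labels, the mice were of strain 129SV/B6 and genotype WT, lymph nodes were the source of the purified cells, and no treatment is named. The labels used here give neither the age nor the number of animals. Each assay has 1 library, so no value has a replicate or an SD, no difference was tested, and differences are those of these libraries. Genes are not replicates of each other, and correlations across genes are given without a p-value.

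H3K27me3 is trimethylation of lysine 27 of histone H3. It is placed by the Polycomb complex PRC2, whose catalytic subunit is Ezh1 or Ezh2, and it can be bound by the Cbx proteins of PRC1. In differentiated cells it is best known from the promoters of developmental regulators of other lineages, which often lie in CpG-rich DNA and are not transcribed. Naive CD4+ T cells are quiescent cells that have left the thymus and have not met antigen, and on activation they can become helper cells of several types, each with its own regulators and cytokines.

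The mark is given as an area, the summed coverage per M reads over a 6 kb window around the transcription start, and as a peak, the highest 25 bp bin of that window. RNA is given as the height of coverage per M reads, taken at its peak in each exon and averaged over exons. It is a height and not a sum over length, so it was compared between genes, with the limit that 1 exon with high coverage can raise the mean. The height of a single read corresponds to 79.7 M ChIP reads and 36.1 M RNA reads. A window was called marked when its area was at least 3 times the median of windows above 0. That median was 13.9 and the threshold was 41.6, which equals about 549 reads in a window. Counting alone gives an area at the threshold a 95% interval of 38.2 to 45.2 (exact Poisson). The interval covers counting error only, because the libraries were amplified by PCR and no molecular identifiers are named.

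Of 18061 windows above 0, 2112 were marked (11.7%). The stretches of DNA just before the transcription start of 6 genes are printed here because they show the combinations of CpG content, mark and RNA that the results turn on. Each is 200 bases long, ends at the base before the annotated start, reads 5′ to 3′ on the gene's strand, overlaps no annotated exon, and has its CpG dinucleotides in capitals. They were read from the mm9 genome. Lhx2 encodes a developmental homeobox factor and Rag2 a subunit of the recombinase that assembles antigen receptor genes in the thymus. Both were marked and had little RNA, with areas of 90.3 and 59.3, and the stretches hold 24 and 3 CpG (chr2:38194601-38194800 and chr2:101464675-101464874, both plus strand).
Lhx2: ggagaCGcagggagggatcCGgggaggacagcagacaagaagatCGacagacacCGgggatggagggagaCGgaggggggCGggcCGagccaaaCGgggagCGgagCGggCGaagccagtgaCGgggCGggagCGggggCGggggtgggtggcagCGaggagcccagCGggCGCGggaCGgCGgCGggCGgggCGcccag
Rag2: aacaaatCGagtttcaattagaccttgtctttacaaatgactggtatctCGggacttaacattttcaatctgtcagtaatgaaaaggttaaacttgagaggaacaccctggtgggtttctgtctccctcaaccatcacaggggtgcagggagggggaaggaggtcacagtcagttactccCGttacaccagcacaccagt
Lef1, a transcription factor of T cells, was both marked (area 43.2) and expressed (RNA 13.0), and Rps20, a ribosomal protein gene, was expressed at 427 without the mark (area 10.8). Their stretches hold 24 and 22 CpG (chr3:130813189-130813388, plus strand, and chr4:3762813-3763012, minus strand).
Lef1: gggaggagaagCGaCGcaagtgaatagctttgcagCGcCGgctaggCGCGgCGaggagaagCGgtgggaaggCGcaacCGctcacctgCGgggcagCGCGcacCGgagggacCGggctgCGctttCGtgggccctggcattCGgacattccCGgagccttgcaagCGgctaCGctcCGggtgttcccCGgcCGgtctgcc
Rps20: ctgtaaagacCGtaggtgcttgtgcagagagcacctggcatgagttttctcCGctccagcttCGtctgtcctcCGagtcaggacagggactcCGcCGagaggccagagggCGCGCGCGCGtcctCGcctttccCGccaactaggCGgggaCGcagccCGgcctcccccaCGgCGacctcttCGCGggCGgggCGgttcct
Il17a, the cytokine gene that defines Th17 cells, had RNA of 0.0380 and an area of 26.0, below the threshold. Cd2, an adhesion receptor of T cells, had RNA of 52.0 and an area of 10.2. Their stretches hold 4 and 3 CpG (chr1:20720786-20720985, plus strand, and chr3:101091863-101092062, minus strand).
Il17a: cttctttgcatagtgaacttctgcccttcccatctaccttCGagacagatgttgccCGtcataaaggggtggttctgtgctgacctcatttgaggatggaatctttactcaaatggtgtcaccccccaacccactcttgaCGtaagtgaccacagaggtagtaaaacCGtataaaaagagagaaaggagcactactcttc
Cd2: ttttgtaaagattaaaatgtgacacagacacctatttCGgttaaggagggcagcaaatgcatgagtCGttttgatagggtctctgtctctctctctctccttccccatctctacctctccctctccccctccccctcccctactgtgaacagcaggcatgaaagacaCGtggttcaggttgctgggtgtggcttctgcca

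Markers of CD4 T cells had higher RNA than the markers of other blood cells. Of 12 CD4 T cell markers, 11 were listed, at a median RNA of 14.7 (3.81 to 109), with Cd4 at 16.6 and Cd3g at 109, and Trac was not found by symbol. Cd8a was at 0.201 and Cd8b1 at 1.02. The 5 B cell markers lay between 0.189 and 0.495, the 4 NK or cytotoxic markers between 0.0657 and 1.43, the 5 myeloid markers between 0 and 0.275, and the 3 erythroid markers between 0.0127 and 0.399. Prf1 (1.43) and Cd8b1 were thus at RNA 1 or more, and all 5 B cell markers were above the median of all joined genes (0.142). In the longer B cell list 4 of 24 genes were at RNA 1 or more, with H2-Ab1 highest at 2.45. That level was reached by 0 of 23 genes of the myeloid list and 0 of 12 of the erythroid list. Of these markers only Cd14 was at 0. RNA from a few other cells and low RNA in all cells cannot be told apart in bulk samples. The part of other cells in the results was not tested.

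Windows listed at 0 were left out and not read as lacking the mark. Of 542 such windows, 409 lay in unbroken runs that reached the last window of chromosomes 13, 14, 15, 16, 17, 18 and X, 13 were mitochondrial and 120 lay elsewhere. Of the genes in those end runs 26.9% were at RNA 1 or more, against 26.3% of all joined genes. On chromosome 15 the run began at position 100379439 (mm9) and held all 9 Hoxc windows, so the Hoxc cluster was not measured here.

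Of the 15 windows with the highest area, 7 were classed as developmental transcription factors. Prdm8 and Osr2 are so classed although they are in none of the gene lists. The lists that hold the others, homeobox and Pax factors and Sox, Fox, Tbx, Gata and bHLH factors, have 77 and 64 of 18061 windows. The share of all developmental factors among windows was not counted. Prdm8, a zinc finger factor, had an area of 98.1. Olig3, a bHLH factor of the spinal cord, had 93.4, Lhx2 had 90.3 and Sox17, an endoderm factor, had 89.8. Gsx2, Osr2 and Sim1, also among them, had 87.1, 86.5 and 85.5. All 7 had RNA of at most 0.0208. Other windows among the 15 highest were those of Dmwd (91.6), BC061194 (90.2), Cd14 (90.1), Hpcal4 (87.1), C1qtnf4 (85.4) and Ccdc106 (85.1). Sfi1 (380.7) and Coil (132.8) stood above them all and had RNA of 0.873 and 0.502, higher than any other of the 15. These areas were 27.4 and 9.57 times the median, against 7.06 times for Prdm8. No input was used, and whether coverage this high reflects the mark was not tested.

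Body-axis and tissue regulators were the most often marked lists, read against 11.7% of all windows. Of 30 Hox windows with signal, 26 were marked (86.7%), with a median area of 68.6 and a range of 23.7 to 84.8. Hoxa10, Hoxa11 and Hoxb13 had 84.8, 80.8 and 79.9, and RNA of at most 0.0138. The 4 Hox windows below the threshold, named after their values were seen, were Hoxa5 (23.7), Hoxb3 (26.2), Hoxa4 (31.4) and Hoxb4 (34.7). Hoxa4 and Hoxa5 are neighbours, as are Hoxb3 and Hoxb4, and their RNA was also low, between 0.00791 and 0.0415. All 30 Hox genes with signal were under RNA of 0.1. Other homeobox and Pax factors were marked in 68 of 77 windows with a median area of 56.8, and Sox, Fox, Tbx, Gata and bHLH factors in 55 of 64 with a median of 52.6.

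Signalling and tissue genes were marked less often than those factors and more often than the 11.7% of all windows. Of 42 Wnt, Hedgehog, BMP and Fgf ligand windows, 25 were marked, led by Wnt1 (74.4), Wnt9b (68.3) and Wnt11 (67.2). Adrenergic, dopamine and serotonin receptors were marked in 14 of 28 windows, potassium channels in 33 of 82 and collagens and laminins in 16 of 51. Adra2b, an adrenergic receptor, had an area of 62.7 and Col2a1, the main cartilage collagen, 67.1. Not all silent families were marked more often than the 11.7% of all windows. Defensins were marked in 0 of 64 windows, vomeronasal receptors in 2 of 147 and keratins in 2 of 27 with signal (7.41%). Their median RNA was at most 0.028. Of the 27 keratin windows 10 reached 2 times the median area, against 21.9% of all windows, and 21 more were at 0. Median CpG in the central 1 kb was 5 for defensins and 3 for vomeronasal receptors. Of genes with RNA under 0.1 and 0 to 10 CpG, 2.85% were marked. Defensins and vomeronasal receptors have near-identical copies, and reads without a single location were not kept. Their areas can therefore be too low and are uncertain.

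**Figure D1:**
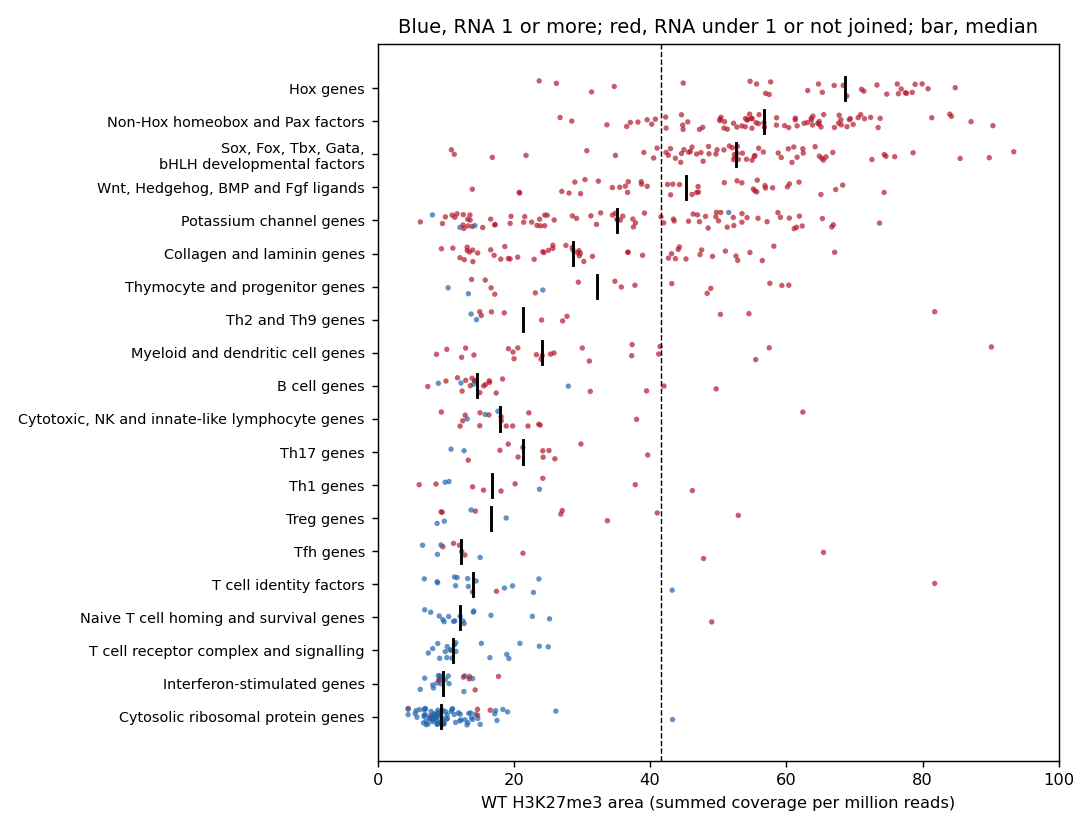
H3K27me3 area (x axis, summed coverage per M reads) of each window above 0 in 20 gene lists, 1 point per gene, blue where RNA was 1 or more and red otherwise; black bars are medians and the dashed line is the threshold of 41.6. The Hox median lies at 68.6 and that of ribosomal protein genes at 9.24; 1 of the latter lies past the threshold.

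Genes of T cell receptor signalling and of naive T cells held few marked windows, in lists too short to be set apart from the 11.7% of all windows. T cell identity factors were marked at a share near it (11.8%). Of 4735 genes at RNA 1 or more, 42 were marked. That RNA level was reached by 16 of 17 naive T cell genes and 14 of 17 identity factors. All 20 genes of the T cell receptor complex and its signalling had RNA of 1 or more, and 0 of their windows were marked, with a median area of 11.1 and a highest area of 25.1 at Cd3g. Of 17 naive T cell homing and survival genes, 1 was marked, Rapgef4 (area 49.0, RNA 0.952). Il7r, the receptor for a survival cytokine, had an area of 16.6 with RNA of 14.7. Of 17 T cell identity factors, 2 were marked, Gata3 (81.8) and Lef1 (43.2). Gata3, which acts in thymocytes and again in Th2 cells, had the most H3K27me3 of this list and RNA of 0.254. It has 6 annotated starts, the farthest 16362 bases from the window centre, so its 6 kb window does not cover them all. Which start its RNA came from was not tested. Ets1 and Bcl11b, other T cell factors, had areas of 22.9 and 14.5 with RNA of 22.7 and 6.62.

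Regulators and cytokines of the helper types differed in the mark within each list, and in lists this short counts of 0 to 3 are to be read beside the 11.7% of all windows. Among Th2 and Th9 genes 3 of 12 were marked: Gata3, Il9 (54.5) and Il10 (50.3). Il4, the defining Th2 cytokine, had an area of 15.2 and RNA of 0.0457. Among Th1 genes 1 of 12 was marked, Hlx (46.2), a homeobox factor, while Tbx21, the factor that defines Th1 cells, lay below the threshold at 37.8 and the Th1 cytokine Ifng at 20.2. Among 13 Th17 genes 0 were marked, with Rora, a nuclear receptor, highest at 39.6 and Il17f, a cytokine gene, at 29.8.

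Beside the same 11.7%, follicular helper genes held 2 marked windows of 12 (16.7%), Ascl2 (65.5) and Tox2 (47.9), both transcription factor genes, while Bcl6, which defines that cell type, had an area of 9.57 and RNA of 0.344. Regulatory T cell genes held 1 of 12, Gpr83 (52.9, RNA 0.734), while Foxp3 had 9.48 and RNA of 0.588. Foxp3 lies on chromosome X, where median areas were lower than on autosomes (given below). Il4, Ifng, Bcl6, Foxp3 and Bcl11b were singled out as defining genes after their values were seen. Among 20 cytotoxic and innate-like genes 1 was marked, Eomes (62.4), a factor of memory and cytotoxic cells, and Zbtb16, which defines NKT cells, was at 38.0. These helper lists are short, and with areas of 37.8 to 39.6 Tbx21, Zbtb16 and Rora lie close below the threshold.

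Factors and receptors of other blood lineages were marked in some cases. Tal1, an erythroid and stem cell factor, had 74.6, Epor, the erythropoietin receptor, 59.3 and Flt3, a receptor of progenitors and dendritic cells, 57.5. Pax5 and Ebf1, which define B cells, had 49.7 and 42.0. In the B cell list 2 of 24 windows were marked, in the myeloid list 3 of 23 and in the erythroid list 2 of 12. Genes used earlier in the T cell lineage were marked in 6 of 18 thymocyte and progenitor windows, again beside 11.7% of all windows. Meis1, Rag2, Cd34 and Lmo2 had 60.4, 59.3, 57.6 and 48.9, each with RNA of at most 0.0624, whereas Dtx1, a Notch pathway gene with RNA of 3.26, had 10.3.

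Genes that a cell can switch on quickly, cell cycle inhibitors and interferon-stimulated genes are set here beside the 11.7% of all windows. Of 17 immediate early genes 3 were marked, Atf3 (57.8), Nr4a2 (54.8) and Fosl1 (52.5), all with RNA of at most 0.121, and Egr2 was just below at 40.1 with RNA of 0.793. Jund, a member of the AP-1 family, had an area of 5.23 with RNA of 10.5. Of 7 CDK inhibitors, which stop the cell cycle, 2 were marked, the neighbours Cdkn2b (74.4) and Cdkn2a (50.5), while Cdkn1b had an area of 8.56 and RNA of 8.22. Interferon-stimulated genes were marked in 0 of 22 windows, and their median RNA was 2.35.

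The genes of the Polycomb complexes held 1 marked window, in lists too short to be set apart from the 11.7% of all windows. Of 10 PRC2 windows with signal 0 were marked, with Ezh1 at 17.2 and Ezh2 at 12.5, and RNA of 1.05 and 0.925. Among 19 PRC1 windows, Cbx2 was marked (49.1), and Cbx8 (38.5), Pcgf2 (37.6) and Pcgf1 (33.1) followed. In all, 6 of the 19 reached 2 times the median, which 21.9% of all windows did. Housekeeping and cell cycle genes were marked in 0 of 18 and 0 of 21 windows. In the ribosomal list 1 of 81 was marked, a single-exon copy named Rps27 whose values are uncertain.

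Marked genes were mostly silent. Of 2110 marked genes with RNA, 1909 (90.5%) were under RNA of 0.1, against 47.2% of all joined genes with signal and 41.4% of those not marked. Median RNA was 0.00964 in marked and 0.267 in other genes. RNA of 1 or more was seen in 42 marked genes (1.99%), against 26.4% of all joined genes with signal and 29.6% of those not marked. The reverse did not hold: of 8477 genes under 0.1, 6568 were not marked, with a median area of 17.8.

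The share of marked promoters was similar among genes with the least RNA and lower in each class from 0.03 to 10. It was 23.7% at RNA of 0, 25.1% up to 0.01, 23.4% up to 0.03 and 15.6% up to 0.1. It was 6.35% between 0.1 and 0.3, 1.72% between 0.3 and 1 and 1.05% between 1 and 3. Of 145 genes over 30, 0 were marked, and the 8 genes with the highest RNA, led by Eef1a1 (494), had areas of 6.85 to 17.3. Median area went from 22.2 at RNA of 0 to 9.13 over 30. Across all 17957 genes the Spearman correlation of area with RNA was -0.52. It was -0.08 within the 2110 marked genes and -0.13 within the 4735 genes at RNA 1 or more. Both measures come from 1 library per assay, and base composition is shared by promoter and gene.

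**Figure D2:**
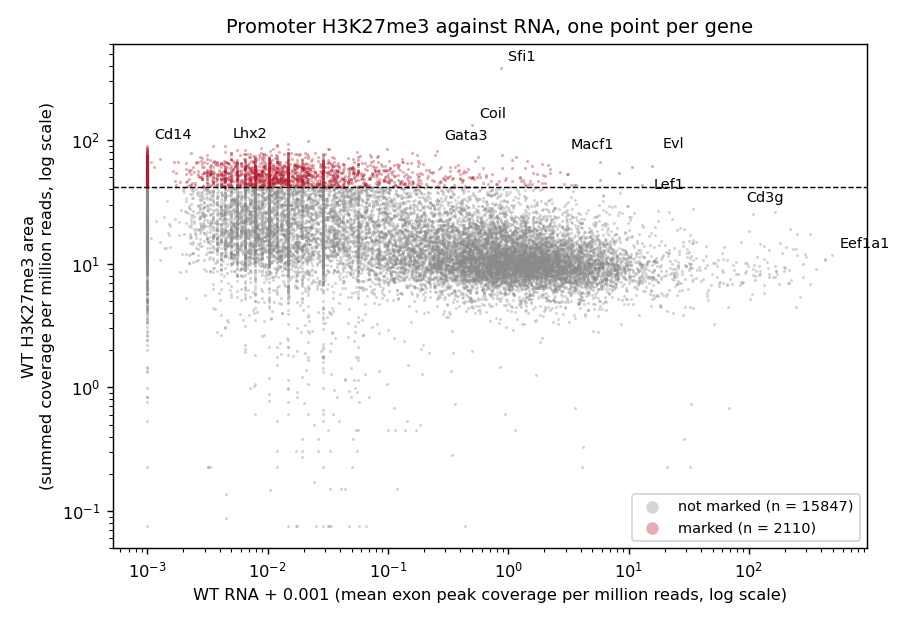
H3K27me3 area (y axis, log scale, summed coverage per M reads) against RNA plus 0.001 (x axis, log scale) for 17957 genes, 1 point per gene; red points are marked and the dashed line is the threshold of 41.6. Marked genes lie mostly at low RNA, with 42 at RNA 1 or more, among them Evl and Lef1; genes at RNA of 0 form the column at the left edge.

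Silent promoters with more CpG dinucleotides were more often marked. Among genes with RNA under 0.1, the share marked was 2.85% with 0 to 10 CpG in the central 1 kb of the window, 7.22% with 11 to 20, 20.6% with 21 to 40, 40.4% with 41 to 60, 46.5% with 61 to 80 and 53.4% with more. Among genes at RNA 1 or more it was at most 1.91% in every one of these classes. With over 80 CpG the median area was 43.4 in silent and 9.53 in expressed genes with the same CpG content. The Spearman correlation of area with CpG number was 0.54 across 8477 silent genes, -0.10 across 4735 expressed genes and -0.04 across all 17957.

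**Figure D3:**
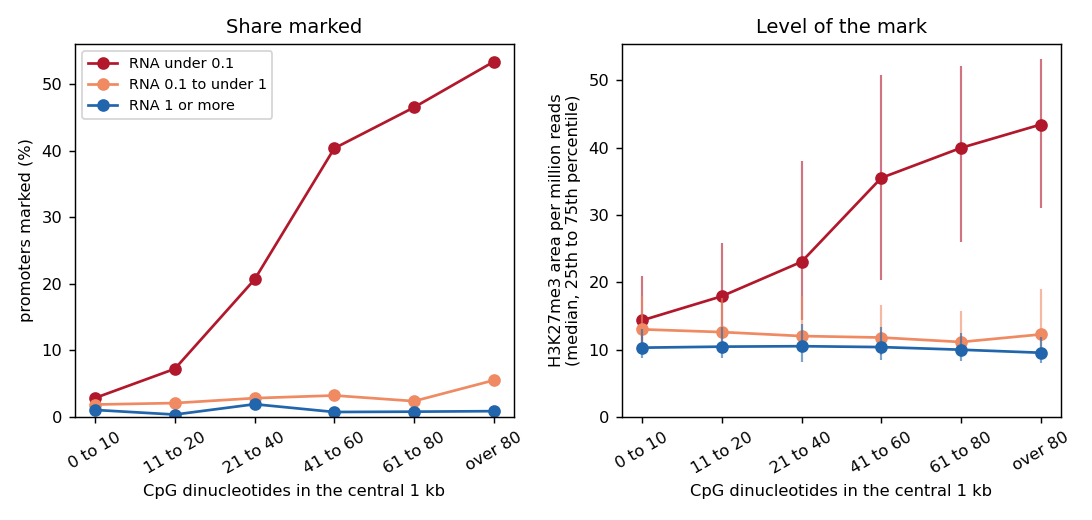
Left, share of promoters marked (y axis, percent) by the number of CpG in the central 1 kb (x axis), for genes with RNA under 0.1 (red), 0.1 to under 1 (orange) and 1 or more (blue). Right, median area (summed coverage per M reads) of the same classes with bars from the 25th to the 75th percentile; the silent class goes from 14.3 to 43.4 and the expressed class stays between 9.53 and 10.5.

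CpG-poor silent genes with the mark were few, 60 of 2108 with at most 10 CpG. Rag2 with 8 CpG, Il9 with 10 and Fcgr1, a macrophage Fc receptor, with 8 are examples, at areas of 59.3, 54.5 and 55.5. Silent promoters with over 60 CpG were divided evenly, 918 of 1836 marked. Short motifs were found at similar shares in these 918 and the other 918. In the central 1 kb, searched on both strands, GGGCGG was found in 96.1% of the marked and 96.9% of the unmarked and in 67.8% of all windows. TATAAA was found in 11.8% and 10.7% against 27.3% of all, CCAAT in 55.9% and 59.3% against 68.6%, and CACGTG in 16.8% and 20.5% against 18.3%. CGCG was in 100% of both against 71.1% of all, and GAGAG in 96.6% and 95.5% against 95.3%. A match is a string of letters and not a bound site.

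The 42 genes that were both marked and expressed were led by Evl (area 61.7, RNA 15.5), an actin regulator, then Lef1 (43.2 and 13.0), Macf1 (60.4 and 10.7), a cytoskeletal linker, Ablim1 (54.4 and 8.29) and Spnb2 (67.2 and 5.83), a spectrin. For Evl, Lef1, Macf1 and Spnb2 the median over exons was close to the mean, at 13.8, 12.1, 9.70 and 5.55. For Ablim1 it was 0.478 and for Snx22 0 (mean 5.80), so high coverage in a minority of exons gives those means. Most of these genes have another annotated start far from the window. Of 41 found in the annotation, 31 (75.6%) have a start over 3 kb from the window centre, against 45.5% of genes at RNA 1 or more, 40.9% of marked genes and 41.1% of all. The farthest annotated start lay 81033 bases away for Evl and 317911 bases away for Macf1, against 2335 for Lef1, whose other start lies inside the window. Which start the RNA came from was not tested. Of the 42, 9 (21.4%) overlap another gene's window, against 10.0% of marked genes and 19.9% of all. In 4 of the 42 the coverage was concentrated in a narrow part of the window, as given below.

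In shape, the coverage of most marked windows was spread over the 6 kb window, which cannot show how far the mark reaches past it. The ratio of the highest bin to the mean bin is 1 in a perfectly flat window, and it was 2.27 in the median marked window (5th to 95th percentile 1.87 to 2.95) against 3.07 in windows not marked. The area that defines a marked window is also the divisor of this ratio, so the call in part sets this difference. The median ratio was lower in each higher class of area, from 10.2 under 0.25 times the median to 2.06 over 6 times. Counting alone spreads single bins by 26.9% at the threshold and by 46.6% at the median area, and its part in the higher ratio of low windows was not tested. The flattest marked windows were those of Oprl1 (1.63), Stmn4 (1.63), AI464131 (1.63), Jam2 (1.64), Sez6 (1.65), Bsx (1.66), Meis1 (1.66) and Hoxd10 (1.67). Bsx, Meis1 and Hoxd10 are homeobox factors, and all 8 genes had RNA of at most 0.0183.

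Area and peak gave windows a similar order, with a Spearman correlation of 0.93 across windows above 0 and 0.65 within marked windows. With the same factor of 3 over the median, 851 windows were marked by the peak, of which 770 were also marked by area, 90.5% of the first and 36.5% of the second. Only 4 marked windows had a highest bin of at least 10 times the mean, a limit chosen after the values were seen: Kpna1 (26.3), Maml2 (17.7), Eif4enif1 (11.9) and Phf21a (11.1). All 4 had RNA of 1 or more and are among the 42 above. Their highest bins held about 461, 365, 197 and 195 reads, of about 697, 818, 657 and 698 in the window. Part of each area thus comes from 1 narrow stack of reads, and no input was used. Whether the 4 calls stand without those reads was not tested. Without these 4, the share of marked genes at RNA 1 or more was 1.80%. Among 80 marked genes with a ratio over 3, 12.5% were at RNA 1 or more, against 0.962% of 312 with a ratio under 2. Of the 9002 joined windows at or above the median area, 7 had such a ratio, and Oasl1 (14.0) and Il31ra (11.6), with areas of 17.7 and 26.9, are among those not marked. Windows under 0.25 times the median had a median ratio of 10.2 (n = 228), up to 139 among all windows not marked, at few reads per window. In the interval from 2 to 3 times the median area, the ratio was 3.27 in expressed and 2.48 in silent genes.

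**Figure D4:**
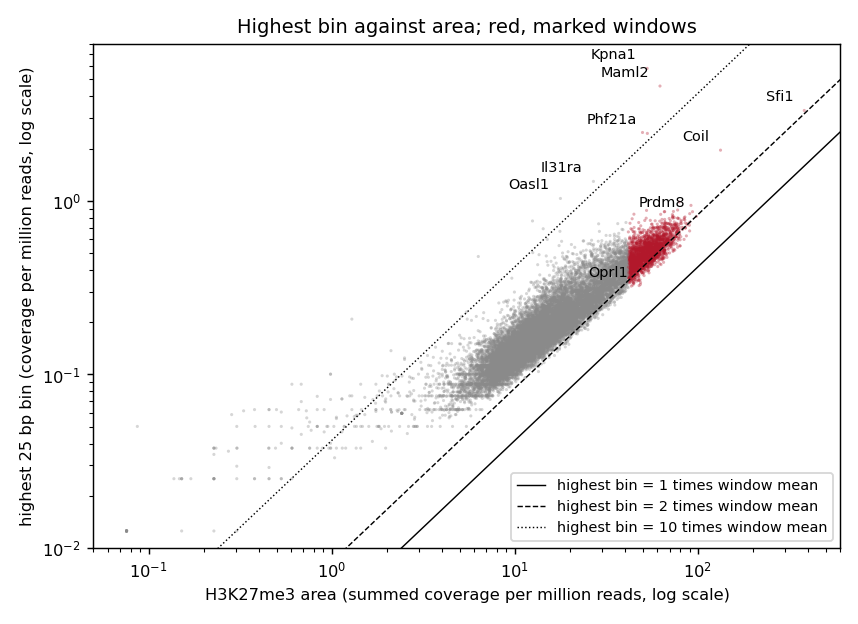
Highest 25 bp bin (y axis, log scale, coverage per M reads) against area (x axis, log scale, summed coverage per M reads) for 18061 windows, red where marked; lines show a highest bin of 1, 2 and 10 times the window mean. Most marked windows lie near the line for 2, and Kpna1, Maml2 and Phf21a lie past the line for 10.

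Marked windows lay near other marked windows. Where the nearest window lay 6 to 12 kb away, it was marked for 30.9% of marked and 7.24% of other windows, and at over 100 kb for 13.2% and 12.1%. Under 6 kb windows overlap and share reads. The 2112 marked windows formed 1658 runs of consecutive windows, of which 1328 were single, and 37.1% of marked windows lay in runs of 2 or more. These runs include overlapping windows, and the share that scattered marks would give at 11.7% of all windows was not computed. The longest run held 10 windows from Evx2 through Hoxd1 (chr2:74494614-74604037, mm9). Others were 8 windows from Calcoco2 through Hoxb5, 8 from Hoxa6 through Evx1 and 7 from Wnt6 to Ihh. The 4 genes Duox2, Duoxa2, Duoxa1 and Duox1, which make and mature an epithelial oxidase, formed another run.

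Chromosome X had no marked window by the common threshold, 0 of 696 joined genes with signal, while 8.48% to 15.6% of windows were marked on the autosomes. Median areas on X were 0.449 times those of autosomes over all genes, 0.510 times among genes at RNA 1 or more and 0.444 times among silent genes with over 60 CpG. The labels used here do not give the sex of the animals. The 11 windows on chromosome Y held signal, at a median area of 5.28. How the sex of the animals bears on these areas was not tested. With X windows set against the median of X (threshold 19.1, an alternative chosen after the values were seen), 80 of 696 (11.5%) were marked. The area of Foxp3 (9.48) was below that threshold as well.

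**Figure D5:**
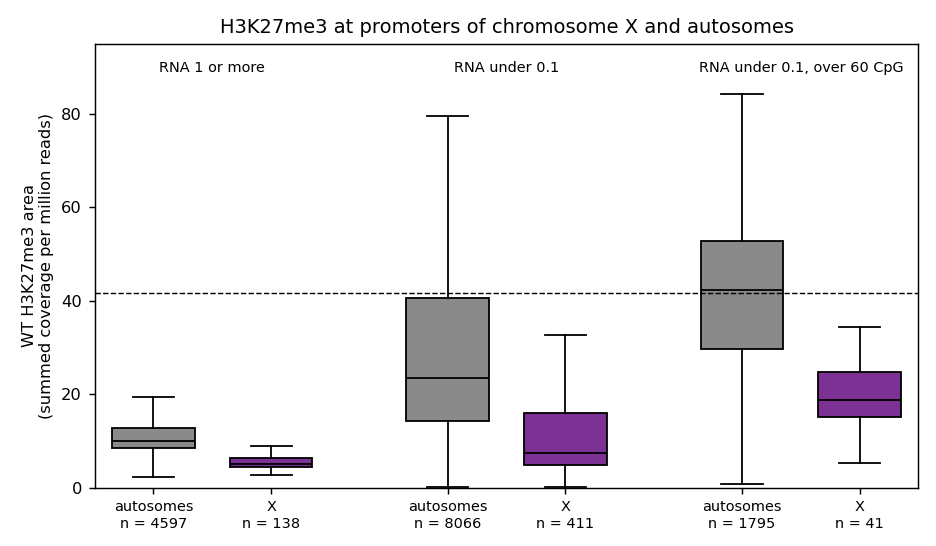
H3K27me3 area (y axis, summed coverage per M reads) of genes on autosomes (grey) and chromosome X (purple) by RNA and CpG class; boxes span the 25th to 75th percentile with the median, whiskers reach the last value within 1.5 times the box, and values past them are not drawn. X medians are 5.13, 7.37 and 18.8 against 10.1, 23.4 and 42.4 on autosomes; the dashed line is the threshold of 41.6.

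At the threshold the call separates nearly equal values: Cadm2 (41.652), Atg4c (41.663) and D0H4S114 (41.685) lay just inside, and Gpr120 (41.634), 5730559C18Rik (41.637) and 1700012B09Rik (41.645) just outside.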

How the data were processed

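H3K27me3 ChIP-seq and RNA-seq of WT cells were used, 1 library each. Per the labels' protocols, reads of 50 cycles were aligned to mm9 with Bowtie 0.12.7 and kept with at most 2 errors and a single location. The deposited ChIP columns hold coverage signal, named per the file headers as area and peak around each start, and the values show them to be scaled per M reads over 25 bp bins of 6 kb windows, with reads extended to 151 bases. The deposited RNA values are also a signal, the mean and the median over exons of peak coverage, and the deposited files give another number, exons per gene. The submitters' processing notes also name Cufflinks, Cuffdiff and bcl2fastq. How the columns were computed and whether input was subtracted is not given in the sources used here.

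Assays were joined by symbol. For 7 of 18484 genes the chromosomes differed between the files. CpG and motifs were counted on the mm9 genome, and starts and exons come from GENCODE vM1. Windows at 0 were left out. The named genes are the 15 highest areas, 10 highest peaks, 8 highest and 8 lowest peak ratios and 15 highest RNA values among marked genes, the 8 highest RNA values, up to 4 areas and the highest RNA per list, markers and threshold neighbours. Of 40 lists, 39 had windows. Members, lists and rules were chosen with earlier results of these data known. The code that calls windows was run on simulated counts with Poisson error, a common mean and planted changes well away from the threshold. That run checks the code only, since the spread of areas and PCR copies of these libraries were not simulated. Python 3.11.15, pandas 2.3.3 and scipy 1.17.1 were used. Alternatives tried were other thresholds, measures, RNA minimums and filters. Some genes that the rule names are not reported here.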

Additional observations from a re-analysis of the deposited data

How the results depend on the processing

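No replicate, input or spike-in was used, so these limits concern processing only. The number of marked windows was 3960 at 2 times the median, 784 at 4 times and 851 by the peak. The share of marked genes at RNA 1 or more (1.99%) was 1.37% by the median over exons and 4.59% with marking by the peak. It was 3.13% at an RNA minimum of 0.5 and 0.853% at 2. With marking at 2 and 4 times the median it was 2.63% and 1.53%. The correlation of area with RNA (-0.52) was -0.41 for the peak. The median ratio of peak to mean was 2.59 over windows at or above the median and 2.96 over all windows. The share marked among silent promoters with over 60 CpG (50.0%) was 76.6% at 2 times and 19.1% at 4 times. A marked window's nearest window was marked in 24.2%, and in 17.7% without overlapping windows. The number of lists marked at over 2 times the share of all windows was 10, and 9 and 10 at the other thresholds. In every setting tried, the correlation of area with RNA stayed negative. Counts, shares and ratios cannot change sign, so no reversal could show in them. A window near the threshold can fall on either side by counting. The cause of these shifts was not tested. No paired analysis was possible because each assay has 1 library. The values with X against its own median, without X genes, without narrow windows and with windows centred on a gene end were chosen after seeing the data.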

Other observations

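Some gene groups outside the comparisons above also held marked windows, against 11.7% of all windows. Of 18 imprinted genes with signal 4 were marked, Grb10 (area 60.9), Phlda2 (47.95), Dlk1 (47.4) and Kcnq1 (47.2), with a median area of 26.2 and 16 of the 18 under RNA of 0.1. Igf2r, the imprinted gene with the highest RNA (1.90), had an area of 13.3. Of 48 glutamate and GABA receptor genes 7 were marked, with Grin1 (66.7) and Gabrd (62.8) highest. Of 294 Zfp zinc finger windows 16 were marked (5.44%), led by Zfp697 (73.8) and Zfp105 (71.9), and of 52 protocadherins 5 were, led by Pcdh1 (60.1).

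Receptors of immune signalling held few marked windows, in lists too short to be set apart from the 11.7% of all windows. Of 4735 genes at RNA 1 or more, 42 were marked. That RNA level was reached by 15 of 21 cytokine receptor chains and 11 of 23 TNF receptor and ligand genes. Of 21 cytokine receptor chains 0 were marked, with Il15ra highest at 31.1. Of 23 TNF receptor and ligand genes 1 was, Cd70 (68.9, RNA 0), and Cd40 (40.97) and Tnfsf4 (40.6) lay just below the threshold. Of 18 chemokine receptors 1 was, Ccr10 (48.9), whose window overlaps another. Of 84 respiratory chain genes 1 was, Ndufa4l2 (44.3, RNA 0.0144), and Cox4i2, a tissue-specific subunit with RNA of 0.00554, was at 40.05. The 11 windows on chromosome Y had areas of 0.234 to 9.88.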
